A study of Mus musculus with 11 samples.

Results

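The Krüppel-like factors (KLFs) examined here were 10 transcription factor genes, *Klf2*, *Klf3*, *Klf4*, *Klf5*, *Klf6*, *Klf9*, *Klf10*, *Klf13*, *Klf16* and *Klf17*, among 54146 genes in the tables. They were picked by symbol, with *Klf5* set against its paralogs because its level in the mutant embryos was already known from these data. The difference between genotypes was therefore used in choosing them, and for the 10 genes it is given as a description. How many of them met the threshold used for all genes is part of that description and supports nothing. Of the 10 members, 9 had a mean normalised read count (baseMean, counts divided by a library size factor) above 10, the study's threshold for embryos, and *Klf6* did not. The tables also held 7 other KLF genes.

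The samples were 11 single mouse embryos of strain C57BL/6, taken from the oviduct at embryonic day 2.5 (8-cell stage) after natural matings of *Prdm10*Δ/+ heterozygotes. *Prdm10* encodes a zinc finger transcription factor, and the Δ allele lacks exon 5, which makes it null in every cell of the embryo. The 5 mutants were *Prdm10*Δ/Δ, and the 6 controls were *Prdm10*+/+ or *Prdm10*Δ/+ without distinction, so a control carried 1 or 2 intact alleles. Genotype was assigned by qRT-PCR of exon 5 in the embryo's own amplified cDNA, and the labels gave neither litter nor parents. Batch 1 (3 controls, 2 mutants) was pre-amplified with 16 PCR cycles and batch 2 (3 controls, 3 mutants) with 13, so that cycle number, day of work and any other feature of a batch cannot be told apart. Library totals were 3534735 to 8265840 expected counts.

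All 5 mutants had a lower *Prdm10* level than any control, with 4.88 to 8.16 TPM (transcripts scaled for length and to 1 total in every library) against 11.1 to 24.8 TPM. The same did not hold for normalised counts, which do not take length into account and spanned 104 to 202 in mutants and 124 to 381 in controls, with 2 mutants below every control. The effective length of *Prdm10* was 4348 to 5051 bases in mutants and 2565 to 3357 bases in controls, and the fitted log2 difference in counts was -0.66 ± 0.26 (DESeq2 adjusted p = 0.215). All 7 8-cell embryo markers were detected, and their summed level was 7932 to 9507 TPM in controls and 8637 to 9496 TPM in mutants. Of 8 cumulus and granulosa cell markers, *Has2*, *Ptx3* and *Foxl2* were at 0 in every embryo, and the list summed to at most 0.47 TPM in controls and 7.06 TPM in mutants. The 6 oviduct markers summed to 36.9 to 74.3 TPM in controls and 32.5 to 55.4 TPM in mutants, and the 6 blood markers to 0.23 to 132 TPM and 0.68 to 42.9 TPM. The part of these maternal cell types in the results was not tested.

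KLF proteins bind GC-rich and CACC-box elements through C2H2 zinc fingers at the carboxyl end of the protein, while the rest of the protein differs between members and recruits activators or repressors. *Klf2*, *Klf4* and *Klf5* are known as partly redundant activators of the self-renewal network in mouse embryonic stem cells, and *Klf5* is required in the preimplantation embryo for the trophectoderm and the inner cell mass. *Klf17* is best known from germ cells and the earliest embryonic stages. *Klf3* recruits the corepressor CtBP, and *Klf9*, *Klf10*, *Klf13* and *Klf16* belong to the branch of the family that binds the corepressor SIN3A.

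The finger sequences are shown first because they define the family and are the stretch where reads of one member could be mistaken for another. A script translated each GENCODE M21 (GRCm38) coding sequence and found the pattern of 3 C2H2 fingers once in each of the 10 members. The coding bases are printed 5′ to 3′ for the 4 members on which the results turn or that are best known in pluripotent cells, with the 12 codons of the zinc-binding cysteines and histidines in capitals. Each run is 243 bases of coding exons joined over introns. It lies at chr14:99302242-99313320 (plus strand, exons 2 to 4) in *Klf5*, chr4:117759119-117760387 (minus strand, exons 2 to 3) in *Klf17*, chr8:72320170-72320913 (plus strand, exons 2 to 3) in *Klf2* and chr4:55528131-55529790 (minus strand, exons 4 to 5) in *Klf4*.
Klf5: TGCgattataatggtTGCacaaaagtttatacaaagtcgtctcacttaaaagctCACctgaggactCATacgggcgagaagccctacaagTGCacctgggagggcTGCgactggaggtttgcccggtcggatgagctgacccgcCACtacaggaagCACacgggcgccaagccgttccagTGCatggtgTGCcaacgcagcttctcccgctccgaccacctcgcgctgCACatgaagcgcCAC
Klf17: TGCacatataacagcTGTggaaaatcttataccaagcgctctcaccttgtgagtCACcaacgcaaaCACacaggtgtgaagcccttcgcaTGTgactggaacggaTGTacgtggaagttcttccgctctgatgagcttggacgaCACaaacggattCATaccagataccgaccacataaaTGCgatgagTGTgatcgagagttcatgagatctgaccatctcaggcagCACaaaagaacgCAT
Klf2: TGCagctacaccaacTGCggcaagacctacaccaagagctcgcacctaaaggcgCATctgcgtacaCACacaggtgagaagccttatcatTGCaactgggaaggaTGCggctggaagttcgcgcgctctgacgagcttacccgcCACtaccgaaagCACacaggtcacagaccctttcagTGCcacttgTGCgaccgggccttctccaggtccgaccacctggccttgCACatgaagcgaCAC
Klf4: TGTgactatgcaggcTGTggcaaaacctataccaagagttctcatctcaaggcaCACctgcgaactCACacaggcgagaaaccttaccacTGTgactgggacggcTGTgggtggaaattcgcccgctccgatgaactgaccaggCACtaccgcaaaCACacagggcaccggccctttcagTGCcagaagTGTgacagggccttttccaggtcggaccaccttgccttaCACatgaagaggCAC

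Between members the 243 bases were 53.1% to 78.2% identical over the 45 pairs. *Klf2* and *Klf4* were the closest pair, at 78.2%. *Klf5* was closest to *Klf3* (73.7%) and *Klf2* (70.4%) and farthest from *Klf17* (56.4%). Over the full longest coding transcript of each gene, no pair shared a run of identical bases longer than 24. That run was between *Klf5* and *Klf9*, and *Klf5* and *Klf17* shared no run longer than 11. Other transcripts of these genes were not compared. Reads were 75 bases long. RSEM, which divides reads that fit several genes, gave a posterior SD of 0 in every embryo for *Klf2*, *Klf5*, *Klf6*, *Klf9*, *Klf10* and *Klf16*, at most 0.36 reads for *Klf3*, *Klf4* and *Klf13*, and a value above 0 in 11 of 11 embryos for *Klf17*, at most 1.53 reads.

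*Klf5* and *Klf17* were the most abundant KLF transcripts of the 8-cell embryo, and their levels lay in opposite directions in the mutants. TPM is corrected for transcript length, so levels of different genes are compared on this scale. Over the 11 embryos the mean level was 131 ± 43.3 TPM (SD) for *Klf5*, 117 ± 72.7 TPM for *Klf17* and 56.5 ± 30.6 TPM for *Klf2*. A second tier followed, with *Klf9* at 19.9 ± 8.36 TPM, *Klf13* at 16.7 ± 7.87 TPM, *Klf4* at 14.0 ± 5.49 TPM and *Klf10* at 13.7 ± 10.4 TPM. *Klf3* (9.57 ± 3.70 TPM) and *Klf16* (6.67 ± 6.51 TPM) were lower, and *Klf6* was at the edge of detection at 0.444 ± 0.709 TPM.

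Some neighbours in this order were separated within single embryos and others were not. *Klf2* exceeded *Klf9* in 11 of 11 embryos, *Klf17* exceeded *Klf2* in 10 of 11, and *Klf16* exceeded *Klf6* in 11 of 11. *Klf5* exceeded *Klf17* in 7 of 11 embryos, and the order of this pair differed between genotypes, with *Klf17* at a mean of 155 TPM above *Klf5* at 97.1 TPM in controls and *Klf5* at 172 TPM above *Klf17* at 70.5 TPM in mutants. *Klf9* exceeded *Klf13*, and *Klf13* exceeded *Klf4*, in 7 of 11 each, *Klf4* exceeded *Klf10* in 7 of 11, *Klf10* exceeded *Klf3* in 5 of 11 and *Klf3* exceeded *Klf16* in 8 of 11, so the order within this lower tier did not stand clear of the spread between embryos.

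**Figure D1:**
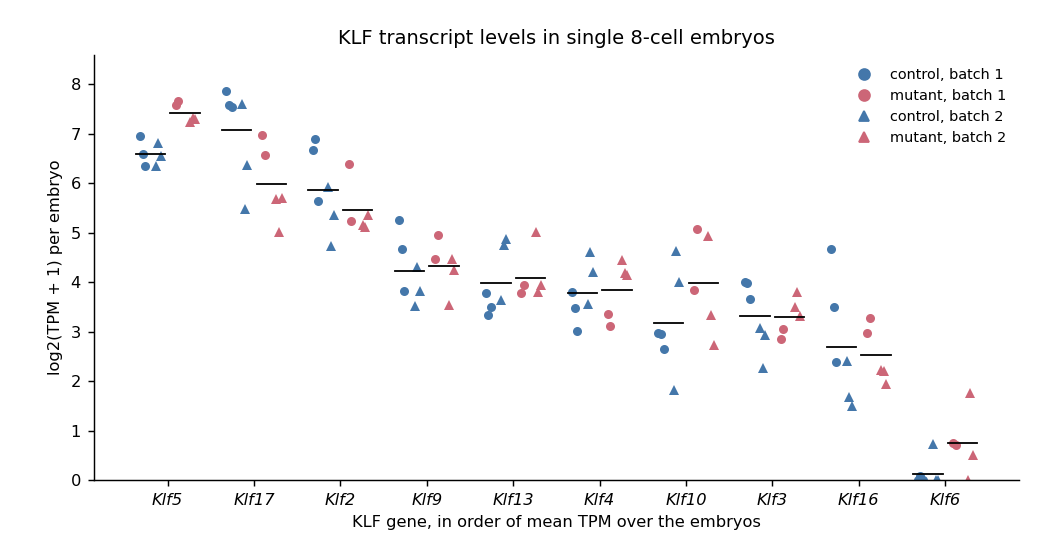
TPM of the 10 KLF genes in each of the 11 embryos, on a log2(TPM + 1) axis, in order of mean TPM. Blue symbols are controls and red symbols mutants, circles batch 1 and triangles batch 2, and black lines the mean of the plotted values of each group. The red symbols of Klf5 all lie above the blue ones, and no other gene is split in this way.

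*Klf5* (ENSMUSG00000005148.8, chr14:99298691-99315036, plus strand) was higher in every mutant than in any control. In batch 1 the controls had 123, 95.1 and 80.3 TPM and the mutants 191.0 and 201 TPM. In batch 2 the controls had 80.2, 112 and 92.6 TPM and the mutants 151, 160 and 156 TPM. The lowest mutant (151 TPM) therefore stood above the highest control (123 TPM), and within each batch the mutants were close together. Its 6 controls averaged 97.1 ± 17.0 TPM (SD) and its 5 mutants 172 ± 22.7 TPM, a ratio of 1.77 over both batches, 1.98 within batch 1 and 1.64 within batch 2. Controls had 1468 ± 207 normalised read counts (SD) and mutants 2634 ± 178, and the fitted log2 difference with batch as a term was 0.84 ± 0.14 (SE). Each library pooled all cells of 1 embryo, so more cells with a transcript and more RNA per cell cannot be told apart.

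*Klf17* (ENSMUSG00000048626.5, chr4:117757836-117765648, minus strand) was lower in the mutants on average, with groups that overlapped. In batch 1 the controls had 233, 190 and 186 TPM and the mutants 125 and 94.5 TPM. In batch 2 the controls had 195, 43.8 and 82.0 TPM and the mutants 50.3, 31.5 and 50.8 TPM. In batch 1 every mutant was below every control, whereas in batch 2 control replicate 2 lay within the range of the mutants. Its 6 controls averaged 155 ± 74.3 TPM (SD) and its 5 mutants 70.5 ± 38.4 TPM, and the fitted log2 difference in counts was -1.10 ± 0.29 (SE). Control replicate 1, with 195 TPM, carried much of the batch 2 difference, and without it the fitted value was -0.72. It was -0.99 without mutant replicate 2, -1.08 without mutant replicate 5 and -1.09 with edgeR.

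**Figure D2:**
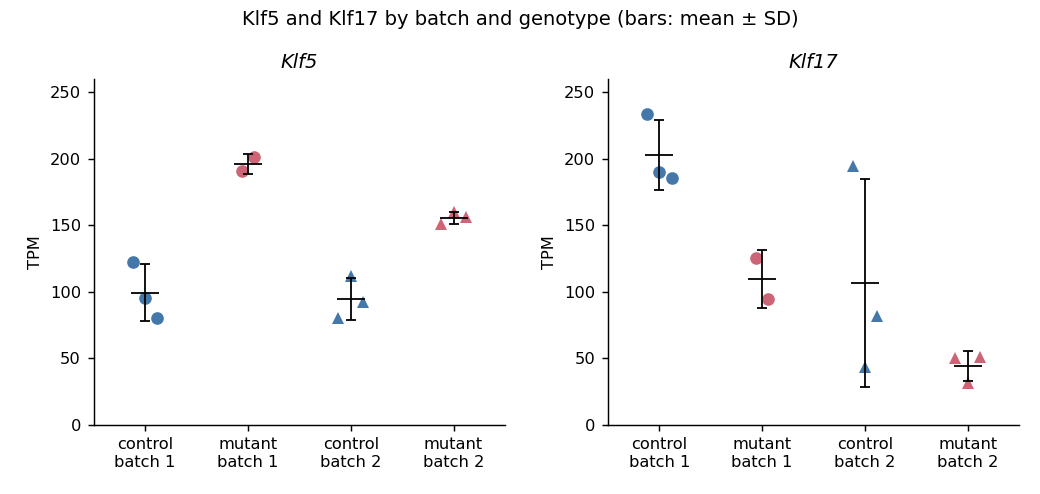
TPM of Klf5 (left) and Klf17 (right) in each embryo, by batch and genotype, with black bars for the mean ± SD of each set of 2 or 3 embryos. Klf5 lies between 80.2 and 123 TPM in controls of both batches and between 151 and 201 TPM in mutants, whereas the Klf17 controls of batch 2 spread from 43.8 to 195 TPM.

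In the fit across all genes (DESeq2, adjusted p under 0.05 and baseMean above 10), 1 of the 9 members above the baseMean threshold passed as higher in mutants (*Klf5*) and 1 as lower (*Klf17*). Over all genes tested, 0.565% passed as higher and 0.881% as lower. Of the same 9 genes, 1 (*Klf5*) had mutant normalised counts that did not overlap those of controls over the 11 embryos, all higher, and none had them all lower, beside 0.286% and 0.639% of genes with a baseMean above 10. Since this contrast chose the members, nothing is read from these counts. The median log2 difference of the 9 genes was -0.04, beside -0.00 over all genes tested, and 4 of the 9 were above 0. The count of 2 genes was 1 when control replicate 1, mutant replicate 2 or mutant replicate 5 was left out, *Klf17* being the one that dropped out.

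The other activators of this group, *Klf2* and *Klf4*, overlapped between genotypes in both batches. *Klf2* (chr8:72319033-72321656, plus strand) had 101, 118 and 49.2 TPM in the batch 1 controls and 83.2 and 36.6 TPM in the mutants. In batch 2 its controls had 59.6, 25.6 and 40.2 TPM and its mutants 34.8, 33.9 and 40.2 TPM. Its fitted log2 difference was -0.37 ± 0.28 (SE). It lay between -0.52 and -0.17 with 1 embryo left out, the values nearest to 0 being those without mutant replicate 5 (-0.17), control replicate 1 (-0.22) and control replicate 5 (-0.24). *Klf4* (chr4:55527143-55532466, minus strand), a reprogramming factor, had 12.9, 10.1 and 7.14 TPM in the batch 1 controls and 9.26 and 7.68 TPM in the mutants. In batch 2 its controls had 10.9, 23.4 and 17.4 TPM and its mutants 20.9, 17.2 and 16.6 TPM. Its levels were thus alike in both genotypes (-0.04 ± 0.23) and higher in batch 2.

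Among the members that bind SIN3A, 3 of 4 had genotypes that overlapped in each batch in TPM. *Klf9*, a hormone-responsive repressor, had 13.2 to 37.2 TPM in batch 1 controls and 21.2 and 30.2 TPM in mutants, with 10.6 to 18.7 TPM and 10.7 to 21.0 TPM in batch 2, and a fitted log2 difference of 0.17 ± 0.27. *Klf13* had 9.20 to 12.8 TPM in batch 1 controls, 12.7 and 14.4 TPM in batch 1 mutants, 11.6 to 28.2 TPM in batch 2 controls and 12.9 to 31.5 TPM in batch 2 mutants (0.12 ± 0.28). The upper end of that range was mutant replicate 1. In normalised counts the batch 1 mutants (340 and 398) were both above the batch 1 controls (252 to 303) of *Klf13*. *Klf16* had 24.5, 10.4 and 4.26 TPM in batch 1 controls and 6.89 and 8.72 TPM in mutants, and 1.84 to 4.36 TPM in all embryos of batch 2 (-0.15 ± 0.41). With 1 embryo left out, the value lay between -0.32 and 0.19 for *Klf16*, between -0.07 and 0.29 for *Klf13* and between 0.05 and 0.31 for *Klf9*, so that the sign for *Klf16* and *Klf13* rested on single embryos.

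*Klf10*, a gene first described as induced by TGF-beta, ranged widely between embryos, from 2.55 to 32.7 TPM. Its controls had 6.93, 6.78 and 5.33 TPM in batch 1 and 2.55, 23.8 and 15.1 TPM in batch 2. Its mutants had 13.3 and 32.7 TPM in batch 1 and 29.6, 9.20 and 5.68 TPM in batch 2. Both batch 1 mutants were above the batch 1 controls, and batch 2 showed no such order. The fitted log2 difference was 0.98 ± 0.74 with both batches, 1.86 in batch 1 alone, 0.25 ± 1.21 in batch 2 alone and 0.53 when mutant replicate 5 was left out. In control replicate 1 its effective length was 1048 bases against 2490 to 2956 in the other embryos, so the value of 2.55 TPM was computed over a shorter length.

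*Klf6*, known from tissue injury responses, was scarcely transcribed. Its counts were 16, 0 and 0 in the batch 2 controls, 0, 55 and 9 in the batch 2 mutants, 0, 1 and 0 in the batch 1 controls and 3 and 3 in the batch 1 mutants. It was at 0 in 5 of 11 embryos, where a count of 0 allows up to 3 reads, from counting error alone. No fold is drawn from these counts. None of the 10 members was in the list of PRDM10-bound genes that the study made in embryonic stem cells.

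The make-up of the KLF transcript pool differed between the genotypes, whose summed levels overlapped. The 10 members summed to 395 ± 110 TPM (SD) in the 6 controls and 373 ± 74.4 TPM in the 5 mutants. *Klf5* made up 21.7, 19.9 and 21.9% of this sum in the batch 1 controls and 40.7 and 46.4% in the mutants. In batch 2 it made up 21.0, 40.0 and 31.2% in controls and 44.0, 52.4 and 49.7% in mutants. The groups did not overlap, although the highest control (40.0%) and the lowest mutant (40.7%) were close and came from different batches. *Klf17* made up 37.6 ± 13.7% in controls and 17.9 ± 6.37% in mutants, and *Klf2* 15.7 ± 5.21% and 12.05 ± 3.54%. *Klf5* was the first-ranked KLF in 5 of 5 mutants and 2 of 6 controls, and *Klf17* was first in the other 4 controls.

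**Figure D3:**
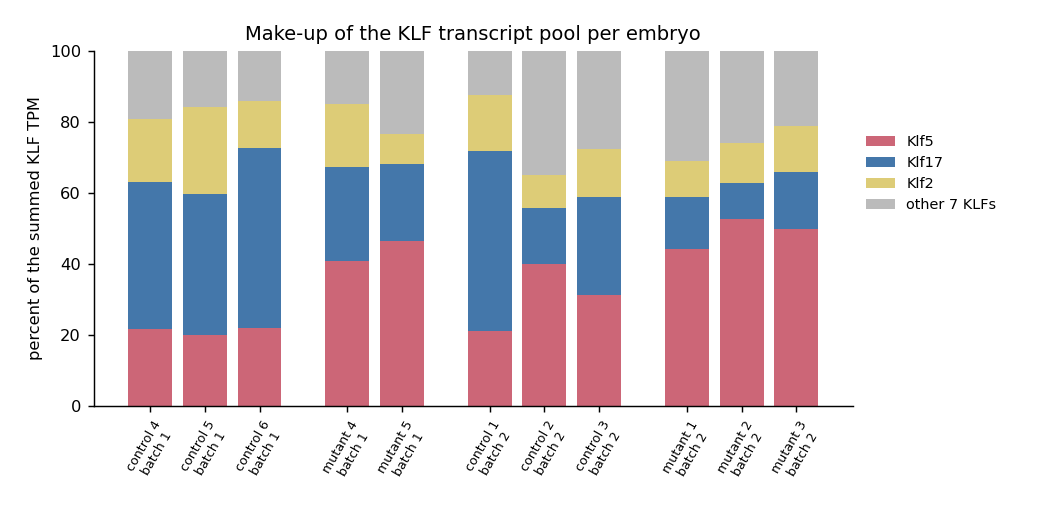
Percent of the summed TPM of the 10 KLF genes held by Klf5, Klf17, Klf2 and the other 7 in each embryo, with embryos grouped by batch and genotype. The Klf5 segment reaches 40.7 to 52.4% in the 5 mutants and 19.9 to 40.0% in the 6 controls.

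Set against single paralogs, the log2 ratio of *Klf5* to *Klf17* TPM was -1.28 to 1.35 in controls and 0.61 to 2.34 in mutants. The ratio to *Klf2* was -0.31 to 2.13 in controls and 1.20 to 2.46 in mutants. The ratio to *Klf4* was 2.25 to 3.49 in controls and 2.85 to 4.71 in mutants. The groups overlapped for each of these paralogs, and the highest control in the ratios to *Klf17* and *Klf2* was control replicate 2. For *Klf10*, whose own mean was also higher in mutants, the mean log2 ratio was 3.61 ± 1.02 in controls and 3.54 ± 1.03 in mutants.

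The difference between batches was not used to choose the members, so it was tested. In the DESeq2 fit with genotype as the other term, 4 of the 9 members passed, 2 of them higher in batch 2 and 2 lower, beside 13.8% of all genes tested that passed as higher and 14.0% as lower. *Klf4* was higher in batch 2 by a log2 difference of 1.16 ± 0.23 (adjusted p = 2.0e-05) and *Klf13* by 1.08 ± 0.28 (adjusted p = 0.00154). *Klf16* was lower by -1.51 ± 0.41 (adjusted p = 0.00225) and *Klf17* by -0.87 ± 0.29 (adjusted p = 0.0158). In normalised counts, *Klf4* was above every batch 1 embryo in 6 of 6 batch 2 embryos and *Klf13* in 5 of 6, and *Klf16* was below every batch 1 embryo in 5 of 6. *Klf17* was below every batch 1 embryo in 4 of 6, but its highest count of all embryos, 2249, was in control replicate 1 of batch 2. *Klf2* was at -0.68 ± 0.28 (adjusted p = 0.0553), close to the threshold, and passed in 6 of 21 alternative analyses. *Klf5* differed by 0.04 ± 0.14 (adjusted p = 0.886), the smallest batch difference among the 9 genes.

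The batch calls of single members depended on a few settings. With limma on log2(TPM + 1), a fit in which the median over all genes moved to -0.20 and 76.3% of passing genes were lower in batch 2 against 50.4% in the DESeq2 fit, *Klf13* did not pass (0.67) and *Klf2* did (-0.86). *Klf2* also passed when control replicate 1 (-0.82), control replicate 6 (-0.80) or mutant replicate 5 (-0.88) was left out. Within the 6 control embryos alone, *Klf13* (1.36) and *Klf16* passed, whereas *Klf4* (1.02) and *Klf17* (-0.70) did not. *Klf17* also did not pass without mutant replicate 4 (-0.77).

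**Figure D4:**
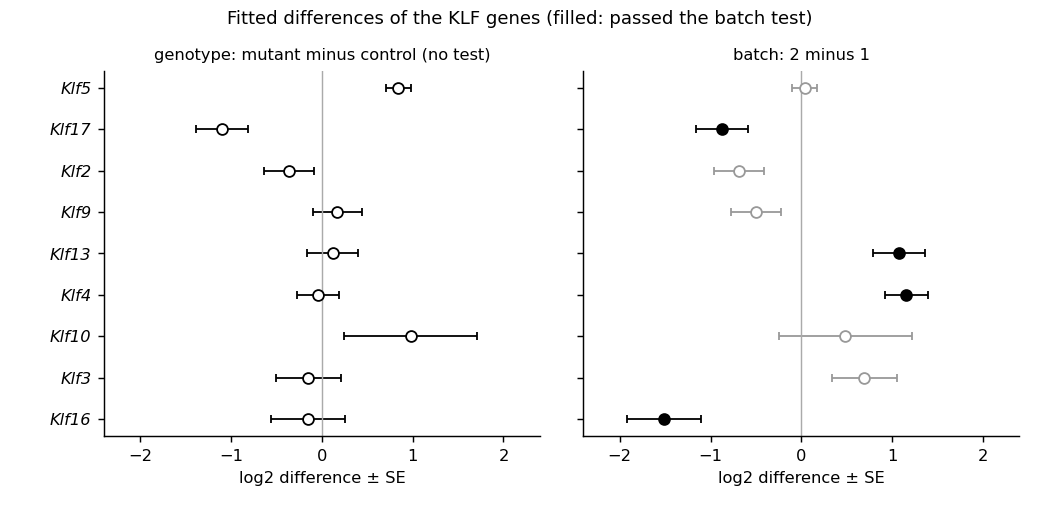
Fitted log2 differences ± SE of the 9 KLF genes with a baseMean above 10, between mutants and controls (left) and between batch 2 and batch 1 (right), from the fit with both terms. The left panel is a description with no test, and on the right the filled symbols passed the threshold over all genes (Klf17, Klf13, Klf4 and Klf16), while Klf5 lies near 0.

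Whether a genotype difference depended on the batch was tested with an interaction term. No member passed in DESeq2, in which 0.0382% of all genes tested passed, and none passed in edgeR. At an unadjusted p under 0.05, where 4.30% of all genes tested lay, there was 1 member of 9, *Klf3*, with a log2 difference between batches of 2.07 ± 0.52 (unadjusted p = 6.9e-05, DESeq2 adjusted p = 0.199). For *Klf5* the interaction was -0.27 ± 0.28, and for *Klf17* -0.39 ± 0.58.

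*Klf3* (chr5:64803388-64832901, plus strand) had 15.0, 14.9 and 11.7 TPM in the batch 1 controls and 6.21 and 7.34 TPM in the batch 1 mutants. In batch 2 it had 7.40, 3.83 and 6.68 TPM in controls and 10.3, 13.0 and 9.0 TPM in mutants. Mutants were thus below all controls in batch 1 and above all controls in batch 2, and the fit with both batches gave -0.15 ± 0.36. The mix of isoforms sets the effective length in RSEM, and this also differed by batch, with 1771 to 2818 bases in batch 1 and 3029 to 4843 bases in batch 2. With limma on log2(TPM + 1), which takes length into account, the interaction was 1.71. The interaction passed when control replicate 1 was left out (2.45, DESeq2 adjusted p = 0.00126), and over the 18 alternatives the adjusted p was 0.00126 to 1.0. The batch difference of *Klf3* was 0.69 ± 0.36 (DESeq2 adjusted p = 0.153), and it passed when control replicate 2 was left out (0.95, adjusted p = 0.0334). Its sign was the opposite with the effective-length offset (-0.20), with limma on log2(TPM + 1) (-0.36) and in the controls alone (-0.17).

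**Figure D5:**
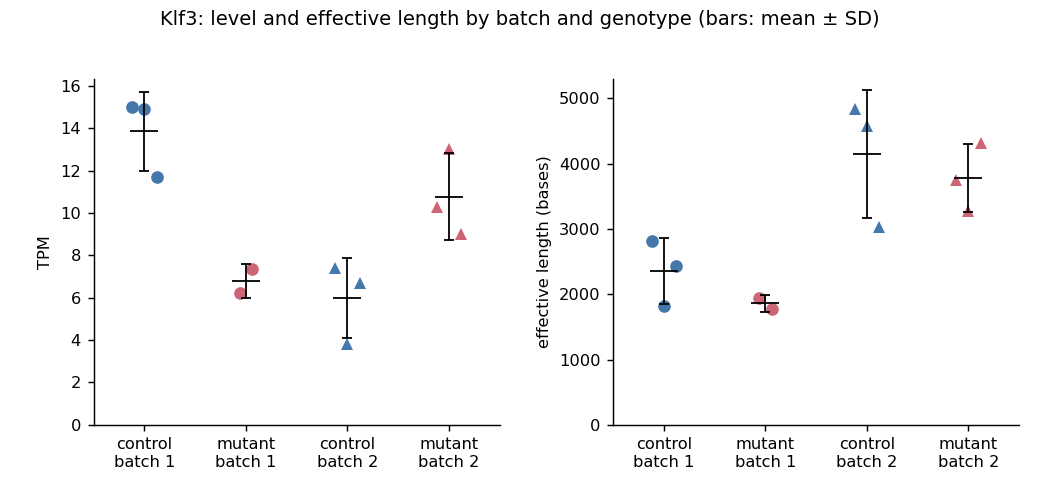
TPM (left) and effective length in bases (right) of Klf3 in each embryo, by batch and genotype, with black bars for the mean ± SD of each set of 2 or 3 embryos. Mutants lie below the controls in batch 1 and above them in batch 2, and every effective length of batch 1 lies below those of batch 2.

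Genes that work with KLFs were taken from lists by role. The lists were written with earlier results of these data known, so their counts between genotypes are not independent evidence of a direction. Of the 7 other KLF genes in the tables, 2 were above the baseMean threshold, *Klf8* and *Klf11*, and 0 passed between genotypes with all embryos in DESeq2, edgeR or limma. *Klf8*, a CtBP-binding member, had a log2 difference of 0.73 ± 0.30 (unadjusted p = 0.0151), with 2.67 to 14.3 TPM in controls and 10.5 to 12.8 TPM in mutants. It passed without control replicate 2 (0.99, DESeq2 adjusted p = 0.0193), the control with the highest value. *Klf11* was at 0.28 ± 0.33. Of the related Sp factors, which bind the same GC boxes, 5 of 9 were tested, and 0 passed with DESeq2 or edgeR, and 0 had an unadjusted p under 0.05. The log2 difference was 0.18 for *Sp1*, 0.14 for *Sp2*, -0.17 for *Sp3*, -0.07 for *Sp4* and 0.75 ± 1.69 for *Sp6*. Between batches *Sp1* (1.17) and *Sp3* (1.27) passed as higher in batch 2.

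Of 14 genes for KLF cofactors and turnover, 12 were tested and 0 passed between genotypes with all embryos in DESeq2 or edgeR. At an unadjusted p under 0.05 there were 1 higher and 1 lower, beside 5.74% and 6.20% of all genes tested. The most abundant were *Hdac1*, a deacetylase of the SIN3 complex, with 251 ± 63.7 TPM in controls and 270 ± 60.2 TPM in mutants (log2 difference 0.14 ± 0.18), and *Btrc*, a substrate receptor of an SCF ubiquitin ligase, with 102 ± 37.5 TPM and 170 ± 38.3 TPM (0.72 ± 0.25, adjusted p = 0.128). *Btrc* passed without control replicate 2 (0.94). The gene with the lower value was *Hdac2* (-0.89 ± 0.27, adjusted p = 0.0611), which is named because of its value. It passed in batch 1 alone (-1.26), with a minimum of 10 counts in 5 libraries (-0.89, adjusted p = 0.0497), and when control replicate 1 (-1.04), control replicate 3 (adjusted p = 0.0383) or mutant replicate 1 (-1.13) was left out. Of 6 genes of the LIF pathway, which induces *Klf4* in stem cells, 4 were tested and 0 passed in DESeq2 or edgeR, with 0 at an unadjusted p under 0.05. The feedback inhibitor *Socs3* was at 0.50 ± 0.29 between genotypes and 11.8 to 32.2 TPM in batch 2 against 43.9 to 137 TPM in batch 1 (log2 difference -2.29 ± 0.29, passed). The kinase gene *Jak1* was at -0.23 ± 0.35.

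Of 16 embryo genes linked to KLF activity in early embryos or stem cells, 13 were tested, 2 passed as higher in mutants and 0 as lower, beside the shares of all genes given above. The median log2 difference of the 13 was 0.38, with 10 above 0. *Tbx3*, a T-box factor of pluripotent cells, was higher by 0.87 ± 0.25 (DESeq2 adjusted p = 0.0425). Its controls had 67.8, 71.0 and 34.5 TPM in batch 1 and 11.8, 34.1 and 21.6 TPM in batch 2, and its mutants 114 and 83.9 TPM and 30.2, 36.8 and 48.7 TPM. Both batch 1 mutants were above the batch 1 controls, and in batch 2 the groups overlapped. *Krt18*, a keratin of trophectoderm, was higher by 1.85 ± 0.47 (DESeq2 adjusted p = 0.0148). Its controls had 1.14 to 2.13 TPM in batch 1 and 6.36, 1.83 and 2.16 TPM in batch 2, and its mutants 4.44 and 13.0 TPM and 11.02, 6.65 and 12.7 TPM. Its mutants exceeded its controls in each batch, with control replicate 1 of batch 2 close to the lowest mutant.

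Neither call stood in every fit. *Tbx3* passed in 8 of 23 alternative analyses, and in 3 of the 11 that left out 1 embryo. It was lost without control replicates 1 (0.72), 3 (0.87), 5 (0.88) and 6 (0.78) and without mutant replicates 2 (0.88), 3 (0.78), 4 (0.80) and 5 (0.91). *Krt18* passed in 9 of the 11 that left out 1 embryo and was lost without mutant replicate 3 (1.81) or 5 (1.44). With edgeR, 0 genes of these lists passed. At an unadjusted p under 0.05, 7 of the 13 genes were higher and 2 lower, beside 5.74% and 6.20% of all genes tested, and the 2 lower were *Nanog* (-1.05 ± 0.38) and *Fgf4* (-1.45 ± 0.47), named because of their values. The most abundant of the list, *Pou5f1* (0.90 ± 0.31, adjusted p = 0.123) and *Tead4* (0.39 ± 0.19, adjusted p = 0.421), did not pass with all embryos.

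*Fgf4*, a growth factor gene of the inner cell mass, had its low counts in 1 batch. In batch 2 it had 136, 101 and 55.2 normalised counts in controls and 8.30, 12.2 and 24.4 in mutants, and in batch 1 it had 152, 180 and 182 in controls and 90.1 and 227 in mutants. In counts the batch 2 mutants were all below the batch 2 controls, whereas in batch 1 the mutants lay on both sides of the controls. In TPM the batch 2 groups overlapped, with 13.2, 10.5 and 3.55 in controls and 1.42, 2.42 and 5.82 in mutants, a ratio of means of 0.354 against 0.154 in counts. The effective length of *Fgf4* was 836 to 1186 bases in those mutants and 1977 to 2956 bases in those controls. With the effective-length offset the log2 difference over both batches was -0.74 and with limma on log2(TPM + 1) it was -0.70. The interaction with batch was -2.61 ± 0.73 in counts (unadjusted p = 0.000357, DESeq2 adjusted p = 0.528) and -1.23 with limma on log2(TPM + 1). In counts *Fgf4* passed in batch 2 alone (-2.71), and also when control replicate 4 (-1.68) or mutant replicate 5 (-2.01) was left out.

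The genes whose pattern was most like that of *Klf5* over the 11 embryos were *Dmgdh* (Pearson r 0.968), *Psap* (0.952), *Trmt61a* (0.945), *Mta3* (0.941) and *Zfp58* (0.939), among 10488 genes compared on log2(TPM + 1) minus the batch mean. The Spearman coefficients were 0.891 to 0.945. Leaving out mutant replicates 4 and 5, the embryos farthest from the median of *Klf5*, gave r of 0.914 to 0.954. The points share their genotype groups and libraries, and with the group mean also removed r was 0.842 for *Dmgdh*, 0.848 for *Psap*, 0.910 for *Trmt61a*, 0.737 for *Mta3* and 0.450 for *Zfp58*. The 5 genes with the highest r after that removal shared 0 genes with these 5. *Psap*, a lysosomal protein precursor, had 155 ± 81.5 TPM in controls and 236 ± 145 TPM in mutants, and *Mta3*, a subunit of the NuRD complex, 208 ± 48.5 TPM and 272 ± 71.9 TPM. *Dmgdh*, a mitochondrial enzyme of choline breakdown, had 22.7 ± 7.09 TPM and 38.3 ± 13.0 TPM, and *Trmt61a*, a tRNA methyltransferase subunit, 12.3 ± 7.74 TPM and 21.5 ± 11.4 TPM. *Klf17* had an r of -0.753 with *Klf5*, and -0.477 with the group means removed.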

How the data were processed

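Single 8-cell embryos were sequenced with a Smart-seq2 protocol (single-end reads, no molecular identifiers). Per the labels and the study's methods, the authors mapped reads to GRCm38.p6 with STAR (version 2.6.0c) and quantified genes with RSEM against GENCODE vM18. The deposited table of each embryo holds the RSEM expected count, the TPM, the effective length and a posterior SD of the count. The authors' deposited comparison table was not used. Symbols, coordinates and coding sequences were taken from GENCODE M21 of the same build, which matched 54079 of 54146 genes.

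The members and gene lists were chosen with earlier results of these data known. Expected counts were rounded and fitted in DESeq2 (version 1.42.0, R version 4.3.3) on batch and genotype. Fold changes were not shrunken, and p-values were adjusted over all genes by Benjamini-Hochberg. A gene passed with an adjusted p under 0.05 and a baseMean above 10. Batch and the interaction were tested by the same rule. Embryos were separate samples, numbered in accession order. Named were all members, the other KLF and Sp genes above the baseMean threshold, list genes that passed, the 2 most abundant genes of each list, the 5 genes most like *Klf5*, and *Prdm10*. Exceptions are marked in the text. Tried besides were edgeR's quasi-likelihood test (version 4.0.16), limma (version 3.58.1) on log2(TPM + 1) and log2(TPM + 0.1), TMM factors, other count filters, an effective-length offset, no Cook's filter, no batch term, each batch or the controls alone, and each embryo left out. The fits were tested on simulated data, in which DESeq2 made more false calls than its threshold allows and more than edgeR or limma. The limit given for a count of 0 covers counting error only, whereas each SE and SD includes the spread between embryos.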

Additional observations from a re-analysis of the deposited data

Results flagged for a closer look

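Normalised counts of the 10 members, *Klf8* and *Klf11* were examined in each genotype, 24 sets in all. In 4 of them, all of members, there was an embryo far from the others of its genotype by Dixon's test, where chance gives about 1 in 20. The sets pooled both batches, and that rate takes no account of batch. It also does not hold for the 2 sets of *Klf6*, in which 4 of 6 controls and 1 of 5 mutants were at 0, so that a single count above 0 can stand apart. *Klf2* was 624 in mutant replicate 4 and 285 to 358 in the other mutants, and replicate 4 is a batch 1 embryo within the range of the batch 1 controls (410 to 902). *Klf13* was 972 in mutant replicate 1 and 340 to 457 in the other mutants, and replicate 1 is a batch 2 embryo, the batch in which *Klf13* was higher, where 2 controls had 801 and 919. *Klf6* reached 13.3 in control replicate 1, the remaining controls having 0 to 1.35, and 41.9 in mutant replicate 2, the remaining mutants having 0 to 8.78. The genotype difference of *Klf3* was larger in batch 2 than in batch 1 by 2.07 on the log2 scale, with mutants below all controls in batch 1 and above all controls in batch 2 (DESeq2 adjusted p = 0.199). The causes of these values were not tested.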

How the results depend on the processing

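No value changed its direction in an analysis where it passed the threshold. Of the KLF members, 2 passed between genotypes, against 1 with edgeR, with limma at either pseudocount and with no batch term, 3 in batch 1 alone (with *Klf10*) and 0 in batch 2 alone. Leaving out each embryo gave 1 to 2. *Klf5* ranged from 0.72 to 1.00 over 23 alternatives. Of the KLF-related genes, 2 passed, against 0 with edgeR, with both limma fits and with no batch term, and 1 with a baseMean above 100 (*Tbx3*), with the effective-length offset (*Krt18*) and in batch 2 alone (*Fgf4*, lower). Batch 1 alone gave 2 others, *Hdac2* and *Pou5f1*, and neither single batch gave *Tbx3* or *Krt18*. Leaving out each embryo gave 0 to 5. For the batch term 4 members passed, against 2 in the control embryos alone and 3 to 5 with 1 embryo left out. For the interaction, 0 passed, and 0 to 1 with 1 embryo left out. The causes were not tested. Of all genes passing between genotypes, 60.9% were lower in mutants with DESeq2, 77.1% with edgeR and 95.5% with limma on log2(TPM + 1). The genes most like *Klf5* changed with the centring (0 of 5 shared), and 9 of 10 members kept their rank by median TPM. No paired analysis was possible because the labels gave neither litter nor parents. With 2 or 3 embryos per batch and genotype, differences of the lower members could be missed, and the single-batch fits rest on few embryos.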
